A study of Homo sapiens with 16 samples.

Results

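RNA-seq libraries of 293T cells transfected with siRNA against hnRNP L were compared with libraries of cells given a scramble siRNA. 293T is a transformed human embryonic kidney line. The labels give wild-type 293T cells and 72 h of siRNA for all libraries, and each of the 2 groups holds 2 libraries, called control and depleted libraries here. A further 2 libraries, from cells given SETD2 siRNA in the same way, entered the same fit and served for direct comparison. Expression was deposited as TPM, which gives each gene's transcripts as a share of all transcripts in its library, on a scale that sums to the same total in each. Genes with a mean of at least 0.5 TPM over the 6 libraries were tested, which left 16300 of 58884 genes. Of these, 14596 were protein-coding or long non-coding RNA (lncRNA) genes, and the counts given here are of those. The labels do not say whether the libraries of a group came from separate transfections, so p-values measure the spread between these libraries, which may be technical. hnRNP L was depleted in 1 cell line by 1 siRNA reagent, with no rescue, so an effect of hnRNP L loss and an effect of the reagent cannot be told apart.

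hnRNP L is an abundant nuclear RNA-binding protein with RNA recognition motifs that prefer CA-rich RNA. It is known as a regulator of alternative splicing, for example of the CD45 transcript, and has also been tied to mRNA stability and 3′ end formation. It binds the histone methyltransferase SETD2, and the study asked how far the depletion of either protein alters the transcriptome. Values per gene, as used here, hold the amount of RNA and not how it was spliced.

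HNRNPL (ENSG00000104824, chromosome 19, 38836370 to 38852347, minus strand, hg38) had 341.04 and 457.16 TPM in the control and 25.04 and 28.81 TPM in the depleted libraries. Its RNA was left at 6.75% of the control mean (log2 fold change -3.85, standard error 0.143, adjusted p = 8.48e-06 from limma), so the labels matched the target. Of its relatives, PTBP2, the neuronal polypyrimidine tract protein, fell from 28.95 and 28.78 TPM to 17.84 and 20.19 TPM (log2 fold change -0.59, adjusted p = 0.0205 from limma). That call was lost with each of the 4 libraries left out in turn (adjusted p up to 0.173, without hnRNP L siRNA replicate 1), and under both median-ratio scaling and quantile normalization. HNRNPLL, PTBP1 and PTBP3 did not pass the test, with log2 fold changes of 0.09, 0.17 and -0.12. A panel of 23 other hnRNP genes, put together after values had been seen, ranged from -0.35 to 0.41 on the log2 scale and 0 of them were called by limma. The smallest adjusted p among them was that of HNRNPUL2 (0.0519), and 5 had an unadjusted p under 0.05.

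The identity of the cells matched the label. VIM, KRT8, KRT18, NEFL, NEFM, PAX2, LHX1 and CDH2, which 293T cells express, were each above 1 TPM in every library. The markers of other lineages PTPRC, CD3E, PECAM1, CDH5, ALB, HBB and MYH6 stayed under 0.5 TPM. The 37 mitochondrially encoded genes took 17.5% of the TPM in scramble replicate 1, against 7.86% in scramble replicate 2, 10.9% and 8.80% with hnRNP L siRNA, and 6.70% to 6.73% with SETD2 siRNA. Scramble replicate 1 therefore stood apart, and results are given without it as well.

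After hnRNP L depletion, 243 genes were upregulated (1.66% of those tested) and 768 were downregulated (5.26%), where a call needed a limma adjusted p under 0.05 and more than a 1.5-fold change. Among protein-coding genes, 133 rose and 688 fell of 12802 tested. Among lncRNA genes, 110 rose and 80 fell of 1794. The median log2 fold change of the called genes was 0.88 for those that rose and -0.75 for those that fell, and 88 and 150 of them changed more than 2-fold. Every called gene had both hnRNP L siRNA libraries on one side of both scramble libraries, as had 58.5% of all tested genes.

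The excess of lower genes depended on the scaling between libraries. Lower genes were 76.0% of the calls in the deposited TPM, where the median log2 fold change over all tested genes was -0.084. After median-ratio scaling, 365 genes were higher and 490 lower, so 57.3% of the calls were lower, and after quantile normalization 366 were higher and 449 lower (55.1%). When the mitochondrially encoded genes were left out and TPM rescaled, 204 were higher and 927 lower (82.0%). The counts also rested on each library. Without scramble replicate 1 they were 79 higher and 249 lower, without scramble replicate 2 they were 232 and 506, without hnRNP L siRNA replicate 1 they were 41 and 93, and without hnRNP L siRNA replicate 2 they were 38 and 148. The calls of 28 higher and 72 lower genes held with each of these 4 libraries left out in turn and under both scalings, and these are called steady here. Where the call of a gene is said to be lost without a library, that library is the one whose loss gave the highest adjusted p, and the loss of others may end the call too.

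Among the protein-coding genes that fell most were a mannosidase, a subunit of a sphingolipid enzyme and a synaptic adhesion protein. Named here are steady genes with a mean of at least 2 TPM over the 6 libraries. MAN2B2, an acid alpha-mannosidase that trims glycans, had 7.59 and 7.35 TPM in the control libraries and 1.63 and 1.44 TPM in the depleted ones (log2 fold change -1.97, standard error 0.141, adjusted p = 0.000412 from limma). SPTLC1, a subunit of serine palmitoyltransferase, which makes the first step of sphingolipid synthesis, had 59.86 and 55.57 TPM against 14.18 and 16.87 TPM (log2 fold change -1.87, standard error 0.114, adjusted p = 0.000194). NLGN2, a postsynaptic adhesion protein of inhibitory synapses, had 24.7 and 20.95 TPM against 5.98 and 6.83 TPM (log2 fold change -1.75, adjusted p = 0.000513). In all 3 the hnRNP L siRNA mean was at most 28.1% of the scramble mean, and the groups did not overlap. The others of the 8 such genes with the largest decrease, HNRNPL included, were PJVK, a protein linked to hearing, with a log2 fold change of -1.81, the sterol oxidase MSMO1 with -1.65, the growth factor gene BMP8B with -1.59 and the nucleolar GTPase gene GNL3L with -1.57. BMP8B and PJVK overlap genes on the opposite strand (PPIE and PRKRA), and whether the counting used strand is not given in the sources used here. PPIE and PRKRA themselves did not pass the test, with log2 fold changes of 0.18 and -0.01.

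**Figure D1:**
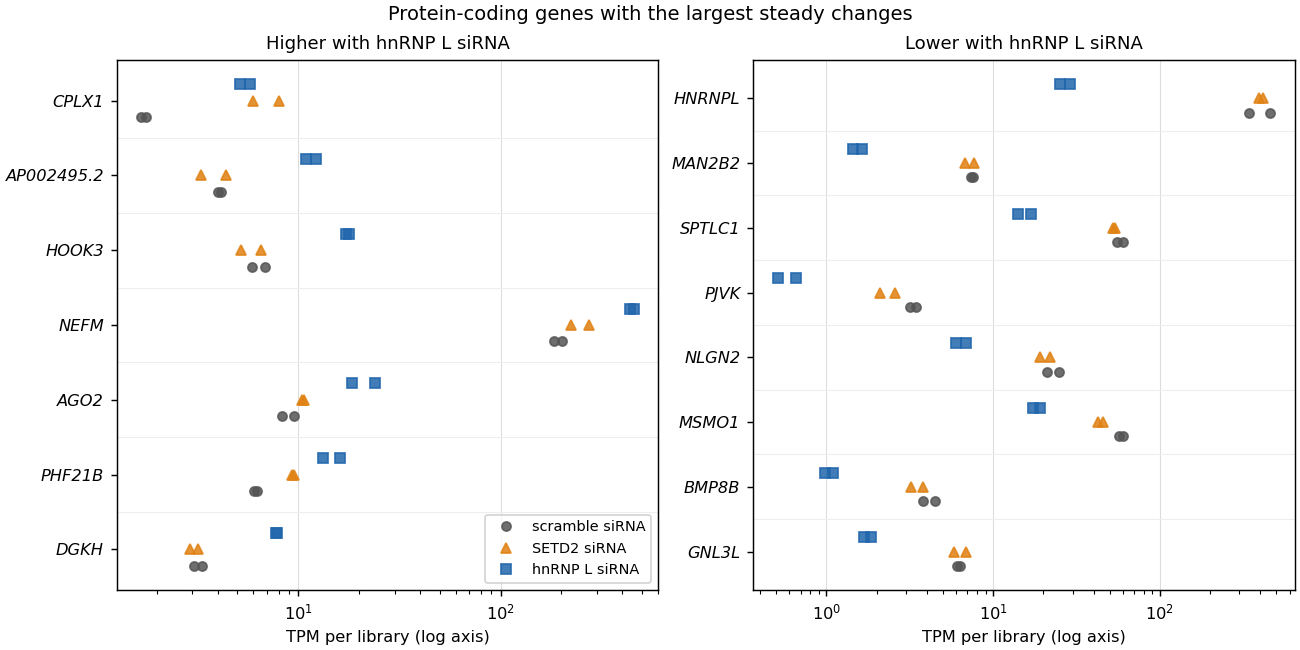
TPM of each library, on a log axis, for the protein-coding genes with the largest steady changes, with grey circles for scramble siRNA, orange triangles for SETD2 siRNA and blue squares for hnRNP L siRNA. Both hnRNP L siRNA libraries lie outside the scramble range in every row, and in the CPLX1, NEFM, AGO2 and PHF21B rows both SETD2 siRNA libraries lie above scramble siRNA as well. AC022506.1, listed at 0 in the scramble libraries, is not drawn.

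In several protein families, put together after values had been seen, some members fell and their relatives did not pass the test. Of the 6 tested genes for serine palmitoyltransferase and its regulators, SPTLC1 was the called one, and its partner SPTLC2 had 15.34 and 13.94 TPM in the control libraries and 14.28 and 14.88 TPM in the depleted ones (log2 fold change -0.00). Of 5 alpha-mannosidase genes, MAN2B2 was the called one, and the lysosomal MAN2B1 had a log2 fold change of -0.09. XRN2, the nuclear exonuclease that acts in transcription termination, fell from 50.94 and 54.69 TPM to 17.95 and 19.25 TPM (log2 fold change -1.48, adjusted p = 0.000412 from limma). Its cytoplasmic relative XRN1 had -0.47 and did not pass (adjusted p = 0.189). Of the gamma-secretase genes, PSEN2 fell from 19.45 and 20.89 TPM to 8.41 and 8.65 TPM (log2 fold change -1.19, adjusted p = 0.00114). HTRA1 and HTRA3, secreted serine proteases, fell by 1.17 and 1.73 on the log2 scale, and the mitochondrial HTRA2 had -0.15. The differences between members of a family were not tested.

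Among the protein-coding genes that rose, AC022506.1 was listed at 0 in all 4 libraries without hnRNP L siRNA and had 4.38 and 18.77 TPM with it. It (chromosome 12, 57517712 to 57520480) overlaps DDIT3 on the same strand, so reads could have been split between them. DDIT3, which encodes the stress factor CHOP, had 15.81 and 21.14 TPM in the control libraries and 19.15 and 21.98 TPM in the depleted ones and did not pass the test. HOOK3, an adaptor that links cargo to dynein, had 6.88 and 5.9 TPM in the control libraries and 17.31 and 17.76 TPM in the depleted ones (log2 fold change 1.39, standard error 0.144, adjusted p = 0.00201 from limma). Its relative HOOK2 fell, from 13.45 and 15.84 TPM to 7.7 and 6.54 TPM (log2 fold change -0.99, adjusted p = 0.00476), a call lost without hnRNP L siRNA replicate 2 (adjusted p = 0.056). HOOK1 had 0.22 and did not pass.

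AGO2, the Argonaute that cleaves RNA paired with a small RNA, rose from 8.3 and 9.49 TPM to 18.48 and 24.03 TPM (log2 fold change 1.20, standard error 0.145, adjusted p = 0.00327 from limma). AGO3 rose from 5.49 and 5.59 TPM to 9.68 and 10.62 TPM (log2 fold change 0.82, adjusted p = 0.00772), a call lost without scramble replicate 1 and without either hnRNP L siRNA library (adjusted p up to 0.0747). AGO1 and AGO4 had log2 fold changes of 0.00 and -0.02. DICER1, DROSHA, DGCR8 and the 3 TNRC6 genes, the other members of that microRNA pathway panel, did not pass the test. Both AGO2 and AGO3 were also higher than with SETD2 siRNA, by 0.96 (adjusted p = 0.00786 from limma) and 1.05 (adjusted p = 0.00335) on the log2 scale. The remaining steady genes among the 8 highest were CPLX1, AP002495.2, NEFM, PHF21B and DGKH. PHF21B, a PHD finger protein, rose by 1.18 and the diacylglycerol kinase gene DGKH by 1.17 on the log2 scale. AP002495.2 rose by 1.39 and overlaps several annotated genes on both strands.

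Cholesterol is built from acetyl-CoA through mevalonate, squalene and lanosterol, and the genes of this route are activated by SREBP-2, the product of SREBF2, when membranes run short of sterol. Of 21 genes for these enzymes, 15 fell (71.4%, against 5.26% of all tested genes). All 21 had both hnRNP L siRNA libraries below both scramble libraries, as had 5842 of the 14596 tested genes. The median log2 fold change of the 21 was -0.70, where that of all tested protein-coding and lncRNA genes was -0.10. After median-ratio scaling the median was -0.60 and 12 genes were lower. Without scramble replicate 1, 14 were lower, without scramble replicate 2, 12, without hnRNP L siRNA replicate 1, 7, and without hnRNP L siRNA replicate 2, 10.

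Early in the route, HMGCS1, which makes HMG-CoA, had 60.61 and 54.75 TPM in the control libraries and 17.99 and 22.12 TPM in the depleted ones (log2 fold change -1.51, standard error 0.136, adjusted p = 0.00114 from limma). IDI1, the isomerase of isopentenyl diphosphate, had 75.37 and 75.17 TPM against 26.62 and 27.93 TPM (log2 fold change -1.45, standard error 0.0928, adjusted p = 0.000225). HMGCS1 was left at 34.8% and IDI1 at 36.2% of the control mean. Of the 6 enzymes from mevalonate to squalene, IDI1 and FDFT1 fell, and MVK, PMVK, MVD and FDPS did not pass both thresholds, with log2 fold changes from -0.58 to -0.28.

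From squalene on, 11 of 12 genes fell. SQLE, the squalene epoxidase, had 247.88 and 224.51 TPM in the control libraries and 85.93 and 91.71 TPM in the depleted ones (log2 fold change -1.40, adjusted p = 0.000675 from limma). MSMO1, the C4 methylsterol oxidase, had 59.91 and 56.93 TPM against 19.1 and 17.41 TPM (log2 fold change -1.65, adjusted p = 0.000194). EBP was the late gene that did not pass both thresholds (log2 fold change -0.43). Over the whole route, the smallest change among the called genes was that of FDFT1, counted above among the enzymes up to squalene, at -0.63.

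SREBF2 itself had 60.47 and 52.62 TPM in the control libraries and 19.05 and 21.24 TPM in the depleted ones, 35.6% of the control mean (log2 fold change -1.46, standard error 0.122, adjusted p = 0.000725 from limma). INSIG1, which holds SREBP back in the endoplasmic reticulum (ER), fell from 251.11 and 235.81 TPM to 115.49 and 138.14 TPM (log2 fold change -0.94, adjusted p = 0.00362). The call of INSIG1 was lost without hnRNP L siRNA replicate 1 (adjusted p = 0.0588), while that of SREBF2 was steady. NR1H3, the liver X receptor alpha gene, also fell (log2 fold change -0.67), a call lost without hnRNP L siRNA replicate 2 (adjusted p = 0.17). SREBF1 and SCAP, the SREBP-1 gene and the SREBP escort, did not pass, with log2 fold changes of -0.37 (adjusted p = 0.1) and -0.29 (adjusted p = 0.118). In all, 4 of 19 tested genes of SREBP control and sterol transport fell (21.1%, against 5.26% of all tested genes, median -0.45), and fewer without hnRNP L siRNA replicate 1.

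SREBP-2 is a transcription factor that reads promoters, so the 250 bases upstream of the RefSeq start are shown for SREBF2 and for the called early and late enzyme genes MSMO1 and HMGCS1 (GRCh38.p14). Capitals mark the sterol response core TCACNCCAC and the CCAAT box, searched on both strands, so that ATTGG is a CCAAT box on the other strand.
SREBF2, chr22:41832855-41833104, plus strand: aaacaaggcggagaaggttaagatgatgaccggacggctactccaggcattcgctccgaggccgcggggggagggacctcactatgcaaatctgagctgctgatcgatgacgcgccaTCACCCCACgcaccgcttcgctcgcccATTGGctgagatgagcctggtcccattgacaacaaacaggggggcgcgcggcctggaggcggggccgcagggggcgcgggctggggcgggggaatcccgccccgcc
MSMO1, chr4:165327419-165327668, plus strand: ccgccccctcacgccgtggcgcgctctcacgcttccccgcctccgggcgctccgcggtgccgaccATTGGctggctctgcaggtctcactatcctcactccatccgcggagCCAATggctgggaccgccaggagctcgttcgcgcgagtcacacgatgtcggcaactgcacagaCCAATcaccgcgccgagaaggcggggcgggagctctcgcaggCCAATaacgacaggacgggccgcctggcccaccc
HMGCS1, chr5:43313413-43313662, minus strand: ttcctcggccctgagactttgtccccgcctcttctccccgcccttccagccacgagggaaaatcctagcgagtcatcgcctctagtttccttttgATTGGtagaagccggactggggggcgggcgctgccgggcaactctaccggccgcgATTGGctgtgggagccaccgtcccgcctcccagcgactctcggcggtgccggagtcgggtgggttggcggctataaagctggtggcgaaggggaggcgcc
The SREBF2 stretch holds the sterol response core 133 bases upstream of the start and a CCAAT box at 106 bases. MSMO1 holds 4 CCAAT boxes and HMGCS1 holds 2, at 155 and 100 bases. Promoters of 16 of the cholesterol synthesis genes were in the RefSeq table, in windows that also take in the first 50 bases of the transcript. CCAAT was found in 13 of them (81.2%), against 43.6% of 10096 tested protein-coding genes and 34.6% of all 35116 promoters. The CCAAT share was 44.2% over the lower genes and 78.1% of 32 promoters of the unfolded protein response list. The sterol response core was found in 0 of the 16, in 2.23% of 539 promoters of lower genes, in 1.42% of the tested genes and in 1.13% of all promoters. A match of letters is a description and no evidence of binding.

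**Figure D2:**
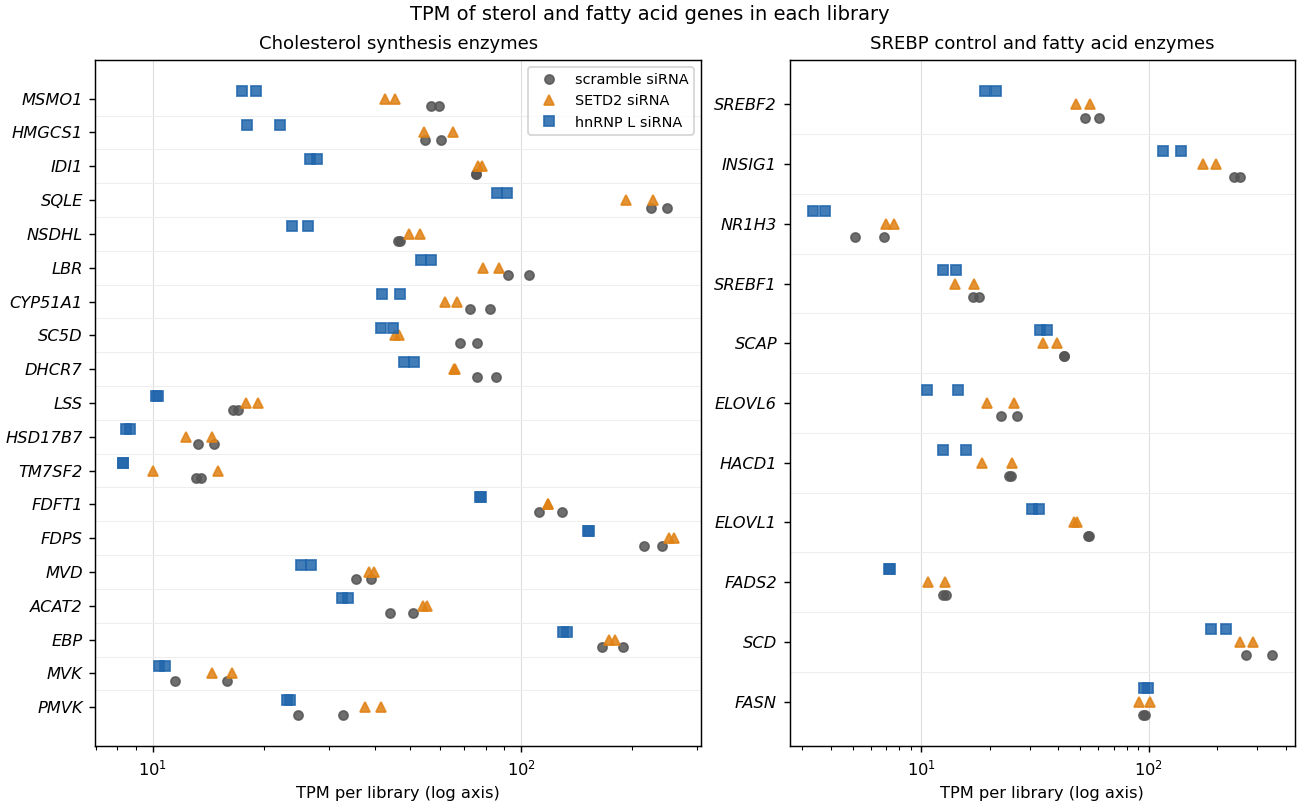
TPM of each library, on a log axis, for 19 of the 21 cholesterol synthesis genes in order of fold change (left) and for genes of SREBP control and fatty acid synthesis (right), with symbols as for the largest genes. In every row of the left panel both hnRNP L siRNA squares lie left of both scramble circles, while FASN shows no shift.

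FASN, the fatty acid synthase, had 96.04 and 94.23 TPM in the control libraries and 98.97 and 94.77 TPM in the depleted ones (log2 fold change 0.03, adjusted p = 0.892 from limma). The groups overlapped. Of 16 tested genes for elongation and desaturation, 8 fell (50%), and 1 of 7 for synthesis (ACSS2, 14.3%), a difference that was not tested. Of all tested genes 5.26% fell. ELOVL6 fell from 26.42 and 22.47 TPM to 10.64 and 14.44 TPM (log2 fold change -0.95, adjusted p = 0.0147), HACD1 by 0.79, ELOVL1 by 0.77 and FADS2 by 0.76 on the log2 scale. SCD, the main delta-9 desaturase, had 346.49 and 267.19 TPM against 187.94 and 218.53 TPM (log2 fold change -0.59, adjusted p = 0.0354). Each of these calls was lost without hnRNP L siRNA replicate 1 or replicate 2 (adjusted p of 0.0518 for ELOVL1 to 0.253 for SCD). The number lower in both sets together, 9, was 4 after median-ratio scaling, 3 without scramble replicate 1, 8 without scramble replicate 2, 1 without hnRNP L siRNA replicate 1 and 2 without hnRNP L siRNA replicate 2.

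The lower genes held many that encode secreted, lysosomal and membrane proteins, which are made on the ER and pass through the Golgi. To describe this without lists, the protein of each gene's canonical transcript (GENCODE 44) was searched for a stretch of 19 residues with a mean Kyte-Doolittle hydropathy of at least 1.6, a mark of candidate membrane segments and some signal peptides. Such a stretch was encoded by 61.0% of the 688 lower protein-coding genes (420 genes), by 23.3% of the 133 higher ones and by 32.5% of all 12802 tested. Among the 545 lower genes that are in none of the gene lists used here, the share was 57.1%. It was 59.2% of the lower genes after median-ratio scaling and 61.5% after quantile normalization.

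The shift was present over all genes and not in the called ones alone. The 4164 genes that encode a stretch had a median log2 fold change of -0.23 and the 8638 others one of -0.05, and 10.1% against 3.10% of them fell. Without scramble replicate 1 the medians were -0.21 and -0.10, and without hnRNP L siRNA replicate 1 they were -0.20 and -0.01. For the 4 pairs of an hnRNP L siRNA and a scramble library, the median of genes with a stretch lay between -0.27 and -0.19 and that of the others between -0.14 and 0.04, lower in each pair for the genes with a stretch. Against SETD2 siRNA the gap was smaller, with medians of -0.14 and -0.11, and 37.9% of the protein-coding genes lower than with SETD2 siRNA encoded a stretch. With SETD2 siRNA against the same scramble libraries, the medians were -0.09 and 0.06. These comparisons share libraries, and the difference between the gaps was not tested.

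**Figure D3:**
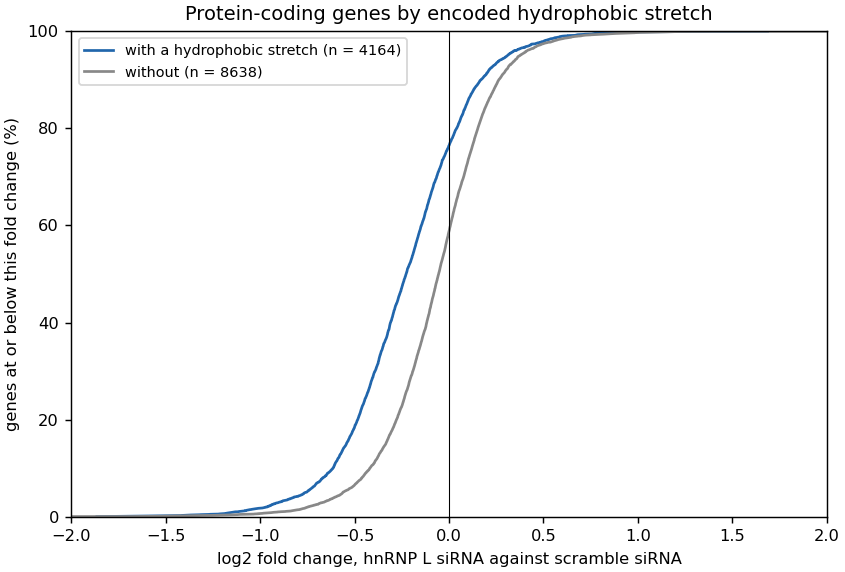
Cumulative share of protein-coding genes, in percent, at or below each log2 fold change of hnRNP L siRNA against scramble siRNA, for 4164 genes that encode a hydrophobic stretch (blue) and 8638 that do not (grey). The blue curve lies to the left of the grey one, with medians of -0.23 and -0.05.

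Other properties of the transcripts differed less. The median length of the canonical transcript was 3564 bases for lower, 2421 for higher and 3348 for all tested protein-coding genes, with 10, 8 and 9 exons and 49.5%, 52.8% and 48.5% GC. The run CACACACA, a stand-in for the CA-rich RNA that hnRNP L prefers, was found in 15.1% of the transcripts of lower genes, 13.5% of those of higher genes and 14.0% of all. Introns, where much of the binding of nuclear RNA-binding proteins lies, were not searched.

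By function, the lower genes of the secretory pathway included enzymes that build and break down glycans. Of 53 N-glycosylation genes, 9 fell (17%, against 5.26% of all tested genes and 10.1% of those that encode a hydrophobic stretch, median log2 fold change -0.31), among them SRD5A3, the polyprenol reductase that yields dolichol, from 22.4 and 23.53 TPM to 9.18 and 10.8 TPM (log2 fold change -1.17, adjusted p = 0.00259 from limma). The others with larger changes were the mannosidase genes MAN1C1 (-1.11) and MAN1A1 (-0.85) and the glucosyltransferase gene ALG10 (-0.85), whose calls were each lost without hnRNP L siRNA replicate 1 (adjusted p up to 0.142). The 11 subunits of the oligosaccharyltransferase, which moves the finished glycan to the protein, included 0 calls by limma, with 5 lower at an unadjusted p under 0.05 and a median of -0.26. Of 60 genes for O-glycans and proteoglycan chains, 15 fell (25%, median -0.41). POMT1, which starts O-mannose chains and is mutated in dystroglycanopathy, fell from 31.48 and 29.89 TPM to 14.87 and 14.46 TPM (log2 fold change -1.04, adjusted p = 0.00201), and SULF2, an extracellular heparan sulfatase, from 54.51 and 46.97 TPM to 25.84 and 26.17 TPM (-0.95, adjusted p = 0.00259). Both were steady. The 9 N-glycosylation genes became 3 without scramble replicate 1, 1 without hnRNP L siRNA replicate 1 and 3 without hnRNP L siRNA replicate 2, and the 15 O-glycan and proteoglycan genes became 5, 3 and 4. GALNT4 had 2.06 and 1.63 TPM in the control libraries and 0.46 TPM and a listed 0 with hnRNP L siRNA, and overlaps POC1B and POC1B-GALNT4 on the same strand, so its reads may have been split.

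Of 62 genes for lysosomal enzymes and membrane proteins, 17 fell (27.4%, against 5.26% of all tested genes and 10.1% of those with a hydrophobic stretch), with a median log2 fold change of -0.39 over the list. After median-ratio scaling 8 were lower, and 6, 13, 2 and 3 were lower without scramble replicates 1 and 2 and hnRNP L siRNA replicates 1 and 2. Like MAN2B2, M6PR was steady. This receptor, which sorts enzymes to the lysosome, fell from 100.63 and 94.8 TPM to 42.13 and 50.19 TPM (log2 fold change -1.08, adjusted p = 0.00269 from limma). LAMP3 had 3.54 and 1.7 TPM with scramble siRNA, so its 2 control libraries differed more than 2-fold, and 0.72 and 0.76 TPM with hnRNP L siRNA.

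Of 66 tested genes of the extracellular matrix 16 fell (24.2%, median log2 fold change -0.42) and 50 were not called. Of all tested genes 5.26% fell, and of those that encode a hydrophobic stretch 10.1%. The 16 were 3 of 18 collagens, 4 of 13 laminin and basement membrane genes, 5 of 19 microfibril and other glycoprotein genes, and 4 of 16 genes for collagen folding and crosslinking. LAMB2, the laminin beta-2 chain, fell from 76.38 and 76.07 TPM to 45.43 and 41.63 TPM (log2 fold change -0.80, adjusted p = 0.00331 from limma) and was steady. The 16 became 3 without scramble replicate 1, 2 without hnRNP L siRNA replicate 1 and 4 without hnRNP L siRNA replicate 2. LTBP2 (-1.15), EFEMP2 (-1.15) and LAMC3 (-1.06) lost their calls without hnRNP L siRNA replicate 1 (adjusted p up to 0.122). Of 24 integrins and cell surface proteoglycans, 5 fell (20.8%, median -0.47), ITGA8, ITGA4, GPC1, GPC3 and SDC4, and none of the 5 kept its call in limma without hnRNP L siRNA replicate 1 or without replicate 2 (15 of the 24 were lower at an unadjusted p under 0.05 with all libraries). GPC3, the glypican with the highest level of those named, fell from 71.38 and 64.33 TPM to 38.79 and 40.38 TPM. Of 28 tested amino acid and organic ion carriers, 11 fell (39.3%, median -0.51). SLC22A5, the carnitine transporter, fell from 11.46 and 9.88 TPM to 5.05 and 4.65 TPM (-1.06, adjusted p = 0.00331) and was steady, and SLC22A18 (-1.34), SLC1A3 (-0.94) and SLC38A3 (-0.93) were not. The 11 became 9 after median-ratio scaling and 2, 10, 4 and 2 without scramble replicates 1 and 2 and hnRNP L siRNA replicates 1 and 2.

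Of 48 tested WNT genes, 11 fell (22.9%, against 5.26% of all tested genes and 10.1% of those that encode a hydrophobic stretch). By role, 5 of 11 for ligands and their secretion and 6 of 17 for receptors fell, and limma called 0 of 14 for signal transducers and inhibitors (3 lower and 1 higher at an unadjusted p under 0.05) and 0 of 6 for targets (1 lower at that p). The differences between these roles were not tested. FZD6, a Frizzled receptor, fell from 10.13 and 9.31 TPM to 4.34 and 4.65 TPM (log2 fold change -1.03, adjusted p = 0.00319 from limma) and was steady. WNT3 (-0.96), WNT5B (-0.92) and WNT5A (-0.89) lost their calls with 1 library left out (adjusted p up to 0.105). The 11 WNT genes that fell became 5 after median-ratio scaling, 2 without scramble replicate 1, and 1 without hnRNP L siRNA replicate 1 or replicate 2. In the BMP and TGF-beta pathway 3 of 33 genes fell (9.09%, near the 5.26% of all tested genes), the ligand gene BMP8B and the receptor genes BMPR2 (14.04 and 11.9 TPM to 5.46 and 6.12 TPM, log2 fold change -1.10) and ACVR1 (-0.82), and 1 rose (3.03%, near the 1.66% of all), the target gene ID3, from 43.4 and 60.22 TPM to 84.06 and 78.4 TPM (0.66, adjusted p = 0.0262). The calls of BMPR2, ACVR1 and ID3 were lost without hnRNP L siRNA replicate 1 (adjusted p = 0.0727, 0.0904 and 0.185). The median of that list was -0.04 in the deposited TPM and turned to 0.05 after median-ratio scaling.

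**Figure D4:**
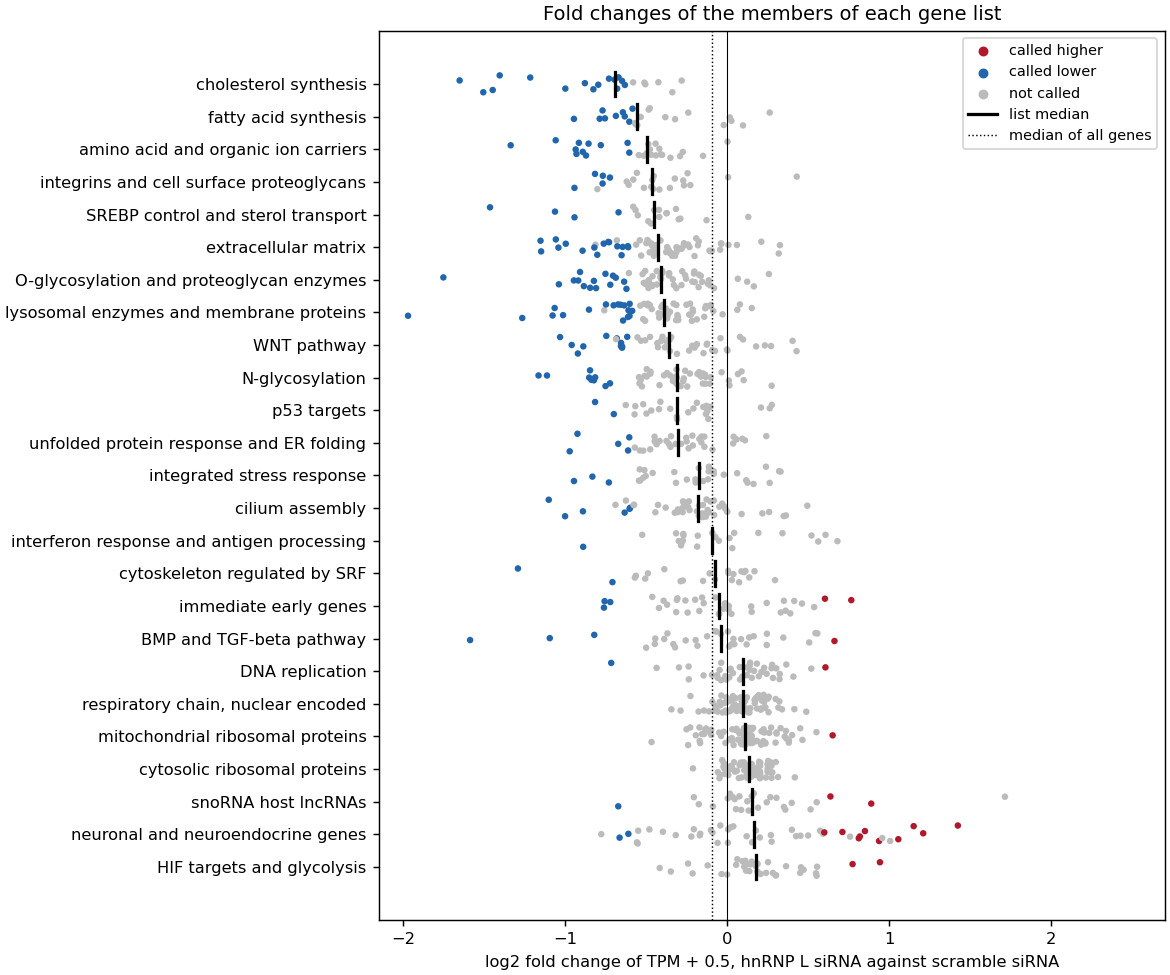
Log2 fold change of TPM + 0.5, hnRNP L siRNA against scramble siRNA, for each tested member of 25 gene lists, in order of the list medians (black bars), with called genes in blue (lower) and red (higher). The cholesterol synthesis list lies lowest, with a median of -0.70, and the lists for mitochondrial and ribosomal proteins lie close to 0 with narrow spreads.

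Neuronal genes were among those that rose. Of 46 tested neuronal and neuroendocrine genes, 10 rose (21.7%, against 1.66% of all tested genes) and 2 fell, SYN2 and SV2A. The median log2 fold change was 0.16, and 21 were higher and 9 lower at an unadjusted p under 0.05 from limma. The granin and dense-core vesicle genes of the list, 5 of them tested, had a median of -0.48. Of these 5, CHGA was called higher, and 1 was higher and 3 lower at that unadjusted p. After median-ratio scaling 13 were higher and neither SYN2 nor SV2A was called, and with the mitochondrially encoded genes left out 8 were higher and 4 lower. Without scramble replicate 1, 5 rose, without scramble replicate 2, 9, and without either hnRNP L siRNA library, 4. The list had been drawn up with earlier results of these libraries known.

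The neurofilament and axon genes took 4 of the 10. NEFM, the medium neurofilament chain, had 201.58 and 183.74 TPM in the control libraries and 437.3 and 454.39 TPM in the depleted ones (log2 fold change 1.21, standard error 0.12, adjusted p = 0.00166 from limma). NEFL, the light chain, had 64.61 and 70.07 TPM against 109.22 and 129.77 TPM (0.82, adjusted p = 0.00515), a call lost without hnRNP L siRNA replicate 2 (adjusted p = 0.0595). MAPT, which encodes tau, had 9.48 and 9.18 TPM against 16.15 and 18.35 TPM (0.85), and GAP43, a growth cone protein, had 4.85 and 5.54 TPM against 8.9 and 8.71 TPM (0.71). The calls of MAPT and GAP43 were lost without hnRNP L siRNA replicate 2 and replicate 1 (adjusted p = 0.0851 and 0.136). Compared directly with SETD2 siRNA, NEFM was higher by 0.85 (adjusted p = 0.00583 from limma), MAPT by 0.80 (adjusted p = 0.0126) and GAP43 by 0.72 (adjusted p = 0.0172) on the log2 scale.

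Several presynaptic and receptor genes that rose were also above scramble siRNA in both SETD2 siRNA libraries. CPLX1, the SNARE-binding complexin, had 1.68 and 1.77 TPM in the control libraries, 5.78 and 5.17 TPM in the depleted ones and 5.97 and 8.02 TPM with SETD2 siRNA, and the difference between the depletions was -0.32 (standard error 0.168, adjusted p = 0.257 from limma). GABRD, CHGA and BSN likewise were not called between the depletions, with log2 differences of -0.01, -0.11 and 0.34. SYP, a synaptic vesicle protein gene, was lower with hnRNP L siRNA than with SETD2 siRNA by 0.39 on the log2 scale (adjusted p = 0.0481 from limma), under the fold-change threshold, at 19.12 and 18.95 TPM against 25.67 and 24.66 TPM. BSN and CHGA were low, with 1.11 to 1.43 TPM with hnRNP L siRNA. For CPLX1, GABRD, CHGA and BSN, a p that misses the threshold does not show that the depletions act alike.

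**Figure D5:**
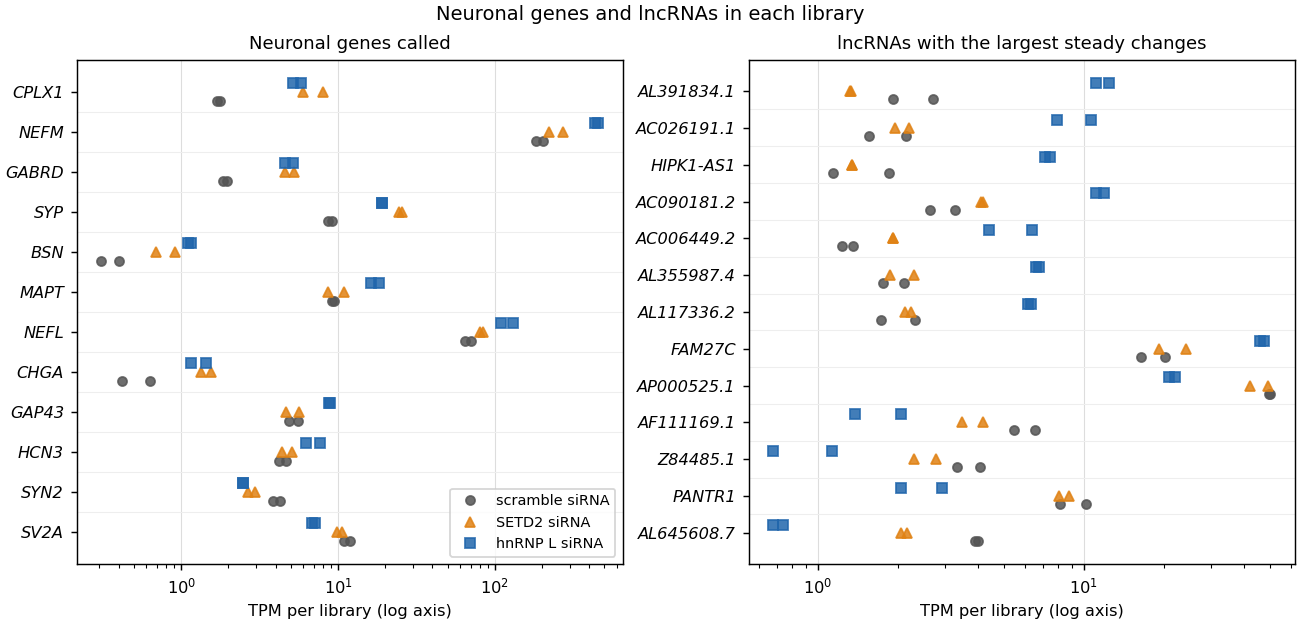
TPM of each library, on a log axis, for the 12 called neuronal genes (left) and for the 13 steady lncRNA genes with the largest changes (right), with symbols as for the largest genes. NEFM, MAPT and GAP43 are higher with hnRNP L siRNA than with SETD2 siRNA, while CPLX1, GABRD, SYP and CHGA lie above scramble siRNA with both.

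For lncRNA genes the balance differed from that of protein-coding genes, with 6.13% higher and 4.46% lower. AL391834.1, antisense to DENND4C on chromosome 9 (19371386 to 19371945), had 2.7 and 1.92 TPM in the control libraries and 11.13 and 12.44 TPM in the depleted ones (log2 fold change 2.14, standard error 0.173, adjusted p = 0.000675 from limma). HIPK1-AS1, antisense to the kinase gene HIPK1 on chromosome 1, had 1.14 and 1.85 TPM against 7.48 and 7.17 TPM (1.99, adjusted p = 0.00161). The genes on the other strand, DENND4C and HIPK1, did not pass the test, with log2 fold changes of -0.29 and -0.15. AC090181.2, which overlaps TSPAN3 on the same strand, rose from 2.65 and 3.27 TPM to 11.1 and 11.87 TPM, while TSPAN3, a tetraspanin, fell from 349.39 and 336.33 TPM to 207.67 and 218.37 TPM (-0.69, adjusted p = 0.00486). AC026191.1, AC006449.2, AL355987.4, AL117336.2 and FAM27C were the other steady ones among the 8 highest, with log2 fold changes from 1.34 to 2.06. FAM27C had the highest level of them, with 16.42 and 20.13 TPM against 47.43 and 46.09 TPM, and belongs to a family of near-identical copies.

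Of the lncRNA genes that fell, 5 were steady with a mean of at least 2 TPM. PANTR1, next to the neural factor gene POU3F3, fell from 8.12 and 10.22 TPM to 2.05 and 2.94 TPM (log2 fold change -1.70, adjusted p = 0.00201 from limma). AL645608.7 fell by 1.88, Z84485.1 by 1.59, AF111169.1 by 1.57 and AP000525.1 by 1.20 on the log2 scale. AF111169.1 overlaps VASH1 on the same strand, and VASH1 fell as well (-0.71, adjusted p = 0.0135). By name, 20 of 337 antisense genes rose (5.93%) and 13 fell (3.86%). Of 148 intergenic LINC genes 10 rose (6.76%) and 8 fell (5.41%). Over all lncRNA genes these shares were 6.13% and 4.46%. Of 46 divergent genes named with -DT, 4 rose. Of the 110 lncRNA genes that rose, 72 overlap an annotated gene on the opposite strand, as do 59 of the 80 that fell and 1206 of the 1794 tested.

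Of 27 tested snoRNA host lncRNA genes, 2 rose (7.41%, near the 6.13% of all lncRNA genes). They were DANCR, from 58.23 and 69.12 TPM to 118.81 and 117.02 TPM (log2 fold change 0.89, adjusted p = 0.00331 from limma), and SNHG9 (0.64). In the other direction 1 fell (3.7%, near the 4.46% of all lncRNA genes), SNHG11 (-0.67), a direction of call that median-ratio scaling took away. All 3 calls were lost without hnRNP L siRNA replicate 1 (adjusted p = 0.0525 to 0.272). NEAT1, the scaffold of paraspeckles, had 89.88 and 69.29 TPM in the control libraries and 103.45 and 129.97 TPM in the depleted ones (0.55, adjusted p = 0.0474), under the fold-change threshold, and was 0.77 higher on the log2 scale than with SETD2 siRNA (adjusted p = 0.0158). MALAT1 (-0.23) and GAS5 (0.02) did not pass.

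Of 79 nuclear genes for the respiratory chain 0 were called by limma, with 8 higher and 2 lower at an unadjusted p under 0.05 and a median log2 fold change of 0.10. Of 80 cytosolic ribosomal protein genes 0 were called, with 4 higher and 0 lower at an unadjusted p under 0.05 and a median of 0.14, which was 0.23 after median-ratio scaling and 0.01 after quantile normalization. Of 81 mitochondrial ribosomal protein genes, MRPS25 rose, from 55.04 and 64.56 TPM to 95.06 and 92.67 TPM (0.65, adjusted p = 0.00957 from limma), and the median was 0.11. Of 48 DNA replication genes, CDT1 rose (0.61) and LIG1 fell (-0.72), 2.08% in each direction, against 1.66% and 5.26% of all tested genes. Of 36 HIF targets and glycolysis genes, 2 rose (5.56%), ANKRD37 (0.94) and HILPDA (0.77), both known to respond to low oxygen. After median-ratio scaling 5 were higher and after quantile normalization 4, and 11 were higher and 2 lower at an unadjusted p under 0.05 in the deposited TPM. By limma 0 of the 17 glycolysis genes were called, with 5 higher and 0 lower at an unadjusted p under 0.05. Leaving out 1 hnRNP L siRNA library ended the calls of MRPS25 and CDT1 (replicate 1, adjusted p = 0.103 and 0.117) and of LIG1, ANKRD37 and HILPDA (replicate 2, adjusted p = 0.0768, 0.0841 and 0.144).

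Of 36 genes of the unfolded protein response and ER folding, 5 fell (13.9%, against 5.26% of all tested genes and 10.1% of those that encode a hydrophobic stretch). After median-ratio scaling 2 were lower. The median was -0.30, with KDELR3 (-0.97), EDEM3 (-0.92), EDEM1 (-0.67) and SEL1L (-0.61) among them, while the chaperone gene HSPA5 had 369.27 and 353.33 TPM in the control libraries and 370.97 and 369.79 TPM in the depleted ones (0.04, adjusted p = 0.851 from limma). Of 31 genes of the integrated stress response, 3 fell (9.68%, NUPR1, SLC1A4 and SLC38A2), and its factor gene ATF4 did not pass (0.32, adjusted p = 0.133). Of 25 p53 targets, 2 fell (8%), DDB2 (-0.82) and MDM2 (-0.70), and the median was -0.31. CDKN1A had a log2 fold change of -0.57 (adjusted p = 0.0417 from limma), under the fold-change threshold. It was 1.17 lower than with SETD2 siRNA (adjusted p = 0.00401). Of the 25 targets 12 were lower than with SETD2 siRNA, against 4.91% of all tested genes (1.99% were higher). With SETD2 siRNA against scramble siRNA, however, the median of the 25 was 0.31. CDKN1A had 0.60 there (adjusted p = 0.194 from limma), with 29.43 and 26.47 TPM against 15.74 and 21.04 TPM. MYC had 0.41 (adjusted p = 0.0412) and was under the fold-change threshold. The calls of the genes named in this paragraph against scramble siRNA were lost without hnRNP L siRNA replicate 1 (adjusted p of 0.0631 for EDEM3 to 0.223 for SEL1L).

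Of 37 immediate early genes, FOS (0.77) and DUSP1 (0.60) rose and SRF (-0.76), EGR1 (-0.76) and CCN1 (-0.72) fell. These are 5.41% and 8.11% of that list, against 1.66% and 5.26% of all tested genes. SRF, a factor for muscle and cytoskeleton genes, fell from 17.46 and 18.37 TPM to 10.41 and 10.31 TPM. Of 23 tested cytoskeleton genes that it is known to control 2 fell (8.7%), TAGLN (4.42 and 4.09 TPM to 1.43 and 1.45 TPM, -1.29, adjusted p = 0.00269 from limma) and FLNA (-0.71). Of 52 cilium genes, 6 fell (11.5%), with TMEM67 steady (17.82 and 17.88 TPM to 8.38 and 8.96 TPM) and TMEM231 (-1.10) and IFT140 (-0.63) not. Of 23 tested interferon response and antigen processing genes, 1 fell (4.35%, near the share of all tested genes). It was TAP1, the peptide transporter, with 12.11 and 12.61 TPM against 6.5 and 6.38 TPM (-0.89, adjusted p = 0.00395 from limma), and its call was steady. The calls named in this paragraph other than TAGLN, TMEM67 and TAP1 were lost without hnRNP L siRNA replicate 1 (adjusted p of 0.0525 for TMEM231 to 0.147 for IFT140). The median was -0.05 for the immediate early list and -0.08 for the SRF list, and turned to 0.04 and 0.01 after median-ratio scaling. It was -0.09 for the interferon list, 0.00 after median-ratio scaling, and -0.18 for the cilium list.

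The genes of the sterol route were also lower than with SETD2 siRNA. In that direct comparison, whose means use none of the scramble libraries but whose estimate of the spread includes them, 13 of the 21 cholesterol synthesis genes were lower with hnRNP L siRNA (4.91% of all tested genes were), with a median log2 difference of -0.71. SREBF2 was lower by 1.33 (adjusted p = 0.00116 from limma) and HMGCS1 by 1.56 (adjusted p = 0.00108). SC5D was among those that did not pass, with 45.48 and 46.61 TPM with SETD2 siRNA and 41.48 and 44.92 TPM with hnRNP L siRNA. Of the lowest steady genes, MAN2B2 (-1.92), SPTLC1 (-1.74), NLGN2 (-1.61) and GNL3L (-1.59) were lower by about as much as against scramble siRNA, and among the higher ones DGKH was higher by 1.22 on the log2 scale, and HOOK3 had 5.22 and 6.59 TPM with SETD2 siRNA. In that comparison 4 of 23 fatty acid genes, 8 of 62 lysosomal genes and 6 of 66 matrix genes were lower, as were 5 of 37 immediate early genes. Higher were 4 of 33 BMP and TGF-beta genes and 4 of 27 snoRNA hosts, against 1.99% of all tested genes.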

How the data were processed

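Total RNA of 293T cells was enriched for poly-A RNA and depleted of ribosomal RNA, and KAPA libraries were sequenced. The submitters' processing notes name STAR 2.6.1c, RSEM 1.3.0 and bcl2fastq 2.18, and the authors aligned to hg38 with Ensembl 96 and deposited 1 RSEM TPM value per gene and library. TPM keep no read counts, so depth and counting error are unknown, and they are shares, so a large change in 1 class of RNA shifts all other values.

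From the deposited TPM, log2(TPM + 0.5) was fitted with limma 3.58.1 (R 4.3.3), with 1 mean per siRNA over all 6 libraries, a variance trend and Benjamini-Hochberg adjustment over the 16300 genes of every biotype with a mean of at least 0.5 TPM. A call required both an adjusted p below 0.05 and a change of more than 1.5-fold. Fold changes are on this log2 scale, which understates those of low genes. An exact two-sided permutation test of 2 against 2 libraries cannot give a p under 0.333 and was not used. Alternatives were other pseudocounts and filters, median-ratio and quantile scaling, TPM without mitochondrially encoded genes, a replicate block and leaving out each library. The fit was tested on simulated data.

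The lists were chosen with earlier results of these data known. Named were HNRNPL and its relatives, up to 8 steady genes per class and direction with a mean of at least 2 TPM and the largest changes, up to 4 called members per list and direction, and 15 fixed genes. Families, overlapping genes and other genes set beside them were chosen after their values were seen. Transcript features and proteins came from GENCODE 44 and promoters from RefSeq (GRCh38.p14). The authors' other data types were not analysed here, and some named genes are not reported here.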

Additional observations from a re-analysis of the deposited data

How the results depend on the processing

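HNRNPL kept its call in every setting tried, and none of the 107 called genes named in the report changed direction in any. Many of the 107 lost their call, however. With no filter on low TPM 55 lost it, and after median-ratio scaling and after quantile normalization 10 each. Many also lost it with 1 library left out. The 243 higher genes became 47 with no filter on low TPM, where many more genes enter the adjustment, 365 after median-ratio scaling, 366 after quantile normalization, 394 without a fold-change threshold and 88 above 2-fold. The 768 lower genes became 158, 490, 449, 1331 and 150 under the same settings. With 1 library left out there were 38 to 232 higher and 93 to 506 lower genes, so each call rests on few residual degrees of freedom. Other pseudocounts, a minimum of 1 TPM, the fit on the 2 groups alone, the fit without a variance trend, the fit on protein-coding and lncRNA genes alone and TPM without mitochondrially encoded genes kept both counts within 1.5 times. With the replicate block 170 genes were higher and 451 lower, but same-numbered libraries did not deviate together (r = -0.126), so the numbers are not taken as pairs. With the numbers crossed, an alternative chosen after seeing the data, 328 were higher and 889 lower. The cause of these differences between settings was not tested.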
